A study of Mus musculus with 6 samples.

Results

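The interferon-stimulated genes described here are 41 genes induced by type I or type II interferon, taken from the 25239 genes of the count tables by their symbols. They were followed in RNA-seq libraries of FACS-purified splenic T cells (TCRb+CD4+CD44-CD127+, a gate meant to hold naive CD4 T cells) from C57BL/6 mice of 3 Ikzf3 genotypes, with 2 libraries each, so 6 in all. These genotypes are called wild-type, heterozygous and homozygous here. Ikzf3 +/+ cells carried the wild-type gene, and Ikzf3 +/N159S and Ikzf3 N159S/N159S cells carried 1 or 2 copies of a germline knock-in allele, made by CRISPR-Cas9 editing, that encodes a missense form (N159S) of Aiolos, a zinc finger transcription factor of the Ikaros family expressed in lymphocytes. The mutant protein is present in every cell that expresses Ikzf3, so the allele is not restricted to T cells. No treatment beyond sorting was given. Age is not given for these libraries in the sources used here.

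Interferons are cytokines that act through receptors coupled to JAK kinases and STAT proteins. Type I interferon assembles a complex that includes STAT2 and IRF9 and binds the interferon-stimulated response element (ISRE) near its target genes, whereas targets of interferon gamma carry the gamma-activated sequence (GAS). The induced genes encode proteins that restrict viral RNA, block viral entry or release, or attack pathogen vacuoles. Resting T cells transcribe many of them at a basal level that depends on tonic signalling.

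All 41 members passed the filter on low counts, with 27 to 14612 reads per library (median 781). Libraries held 11696461 to 17317260 reads on genes, and 14803 to 18147 genes were detected per library. The CD4 T cell marker list summed to 4771 to 4936 CPM (counts scaled to library size) in wild-type libraries. It summed to 4029 to 4317 CPM in heterozygous and 4286 to 4289 CPM in homozygous libraries. B cell markers, of which 13 of the 17 listed were in the tables, summed to 208 to 324 CPM in wild-type, 543 to 882 CPM in heterozygous and 136 to 206 CPM in homozygous libraries, and none of these 13 was at 0 in all libraries. The regulatory T cell list summed to 86.1 to 90.6, 126 to 149 and 86.5 to 94.3 CPM in the same order. The CD8 and NK cell list, 11 genes of which none was at 0 in all libraries, summed to 71.3 to 77.0 CPM in wild-type, 60.0 to 64.4 CPM in heterozygous and 43.9 to 48.8 CPM in homozygous libraries. The X-inactivation RNA Xist, a mark of female cells, stood at 731 and 824 CPM in heterozygous libraries against 0.77 to 1.98 CPM in the other 4, and the Y-linked Ddx3y showed the reverse, so heterozygous genotype and this sex-linked difference cannot be told apart. In sorted bulk samples, fewer cells of a type and less RNA per cell cannot be told apart either.

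Promoter sequences of the members were searched for 1 fixed spelling of the element of the type I response. RefSeq promoters on GRCm38.p6, which shares mm10 coordinates, were matched to 30 of the 41 members. The unmatched ones were Ly6a, Ly6e, Rtp4, Usp18, Oas2, Mx1, Ifi27l2a, Parp14, Dhx58, Zbp1 and Iigp1. The ISRE core, spelled GAAANNGAAA and searched on both strands over the 300 bases around each start (250 before, 50 after), was found in 17 of the 30 members (56.7%) and in 3.99% of the 27025 genes with a promoter in the table. The core of GAS, TTCNNNGAA, was found in 9 of 30 (30%) against 9.55% of all genes. TGGGAA, the core letters that Ikaros family zinc fingers bind, was found in 12 of 30 (40%) against 28.3% of all genes. A match is a run of letters and not evidence of binding, and a miss does not show that the element is absent. The 5 sequences shown first belong to members that passed the test in at least 1 comparison described further on and held an ISRE core. Each is 100 bases long, runs 5′ to 3′ on the strand of the gene and ends before the transcription start, with every ISRE core in capitals and overlapping cores joined.
Oas1a (chr5:120907526-120907625, minus strand): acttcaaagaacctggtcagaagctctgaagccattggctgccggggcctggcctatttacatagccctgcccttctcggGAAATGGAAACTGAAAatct
Bst2 (chr8:71537545-71537644, minus strand): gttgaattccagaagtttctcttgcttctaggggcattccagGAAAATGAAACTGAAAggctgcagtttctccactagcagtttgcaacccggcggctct
Gbp2 (chr3:142620559-142620658, plus strand): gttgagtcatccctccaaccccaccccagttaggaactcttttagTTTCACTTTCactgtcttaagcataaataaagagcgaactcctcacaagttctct
Slfn5 (chr11:82951902-82952001, plus strand): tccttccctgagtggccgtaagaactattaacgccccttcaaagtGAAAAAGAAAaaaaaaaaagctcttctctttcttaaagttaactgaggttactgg
Isg15 (chr4:156200836-156200935, minus strand): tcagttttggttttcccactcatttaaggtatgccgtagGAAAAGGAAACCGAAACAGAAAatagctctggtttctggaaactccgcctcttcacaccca

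Counting the RefSeq start as position 0, the pair of overlapping cores of Oas1a lay at -20 to -11 and -14 to -5, those of Bst2 at -130 to -121 and -124 to -115, and the 3 of Isg15 between -78 and -57. The single core of Gbp2 at -59 to -50 read on the opposite strand, so that its capitals are the reverse complement of the motif, and that of Slfn5 lay at -155 to -146. Another 3 members that passed the test, Oasl2, Ifi44 and Ifit2, had no ISRE core of this spelling in the window. Their 100 bases before the start are shown for contrast, with no capitals.
Oasl2 (chr5:114896834-114896933, plus strand): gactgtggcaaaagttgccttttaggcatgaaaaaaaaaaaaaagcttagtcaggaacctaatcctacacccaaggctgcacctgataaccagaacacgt
Ifi44 (chr3:151749911-151750010, minus strand): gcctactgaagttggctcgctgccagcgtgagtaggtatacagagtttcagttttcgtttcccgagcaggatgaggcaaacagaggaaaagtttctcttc
Ifit2 (chr19:34550594-34550693, plus strand): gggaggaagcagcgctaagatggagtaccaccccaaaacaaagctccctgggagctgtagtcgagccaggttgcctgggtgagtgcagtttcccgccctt

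The members were not raised or lowered together in homozygous cells. In Ikzf3 N159S/N159S against Ikzf3 +/+ T cells, 5 members were higher (Oas1a, Ifi44, Oasl2, Bst2 and Gbp2) and 3 were lower (Ly6a, Ifit2 and Slfn5) at an adjusted p under 0.05 (edgeR quasi-likelihood test, Benjamini-Hochberg over 12117 genes). Of all genes tested, 3.10% were higher and 2.10% lower at the same threshold. Across the 41 members, 22 fold changes were above 0 and 19 below, with a median log2 fold change of 0.0053 against 0.00018 for all genes, while the median absolute log2 change was 0.24 for members and 0.17 for all genes. Both homozygous libraries lay above both wild-type libraries for 15 members and below them for 12, where 24.3% and 23.9% of all genes did so.

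**Figure D1:**
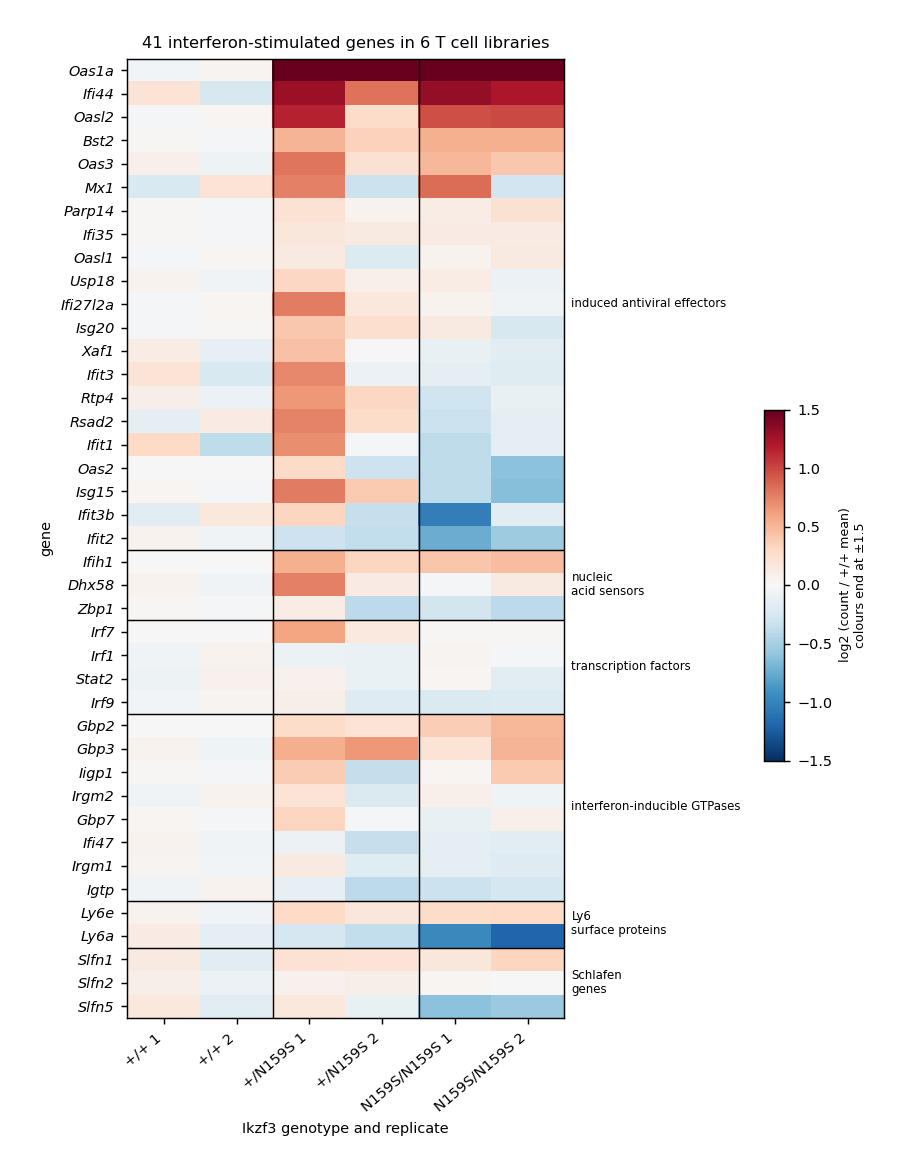
Heat map of the 41 members (rows, grouped by role) in the 6 T cell libraries (columns, Ikzf3 genotype and replicate). Colour gives the log2 ratio of the normalised count to the mean of the Ikzf3 +/+ libraries, red above and blue below, and ends at 1.5 in either direction; the column of Ikzf3 +/N159S replicate 1 is the highest library for 25 of the 41 genes.

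The OAS family, enzymes that sense double-stranded RNA and make the 2′-5′ oligoadenylates that activate RNase L, held the largest change. Oas1a had normalised counts (reads scaled to the mean effective library size) of 82.3 and 86.6 in wild-type, 328 and 255 in heterozygous and 347 and 344 in homozygous cells. All mutant libraries lay well above the wild-type pair, and the homozygous pair lay above the heterozygous pair. The log2 fold change was 2.03 ± 0.17 (SE; adjusted p = 8.1e-05, edgeR) in homozygous and 1.78 ± 0.17 (adjusted p = 6.8e-04) in heterozygous cells against wild type. The difference between the mutant genotypes, 0.25 ± 0.15 on the log2 scale, did not pass the test (adjusted p = 0.59).

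Oasl2, an OAS-like protein, had normalised counts of 208 and 218 in wild-type, 473 and 258 in heterozygous and 417 and 422 in homozygous cells, a log2 fold change of 0.98 ± 0.23 (adjusted p = 0.032, edgeR) in homozygous cells. The heterozygous libraries were far apart, yet both were above wild type. Oas3 was at 635 and 572, then 1054 and 707, then 853 and 801 in the same order. Its log2 fold change in homozygous cells was 0.46 ± 0.16 and did not pass the test (adjusted p = 0.16). The neighbouring Oas2 had a log2 fold change of -0.49 ± 0.17 (adjusted p = 0.13), with both homozygous libraries below both wild-type libraries, and Oasl1 one of 0.09 ± 0.15. The fold changes of the OAS genes thus had both signs, and Oas1a alone among them was past the threshold in both mutant genotypes.

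Oas1a belongs to a cluster of related Oas1 genes, and the assignment of reads among them was not checked. The other Oas1 genes, looked up after the values of Oas1a were seen, had smaller fold changes. Oas1b had 280 and 277 normalised counts in wild-type, 437 and 374 in heterozygous and 368 and 320 in homozygous cells, a log2 fold change of 0.31 ± 0.14 in the latter (adjusted p = 0.28, edgeR). Oas1c had a log2 fold change of 0.23 ± 0.13 (adjusted p = 0.39). Oas1g was at or under 5.8 normalised counts in every library and was not tested.

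Among the other antiviral effectors, Ifi44, which encodes an interferon-induced GTP-binding protein, was the lowest-expressed member on a per-length scale, at 0.35 RPKM (reads scaled for exon length and library size) in wild-type cells. Its normalised counts were 37.3 and 27.2 in wild-type, 78.6 and 56.9 in heterozygous and 80.1 and 74.6 in homozygous cells. The mutant libraries all lay above the wild-type pair, and the log2 fold change was 1.28 ± 0.31 (adjusted p = 0.036, edgeR) in homozygous and 1.09 ± 0.31 (adjusted p = 0.11) in heterozygous cells.

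Bst2 encodes tetherin, which holds budding virions at the cell surface. Its normalised counts were 683 and 668 in wild-type, 961 and 858 in heterozygous and 976 and 978 in homozygous cells. The replicates were close and the genotypes did not overlap, with a log2 fold change of 0.53 ± 0.10 (adjusted p = 0.013, edgeR) in homozygous cells and 0.43 ± 0.10 in heterozygous cells, where the adjusted p was 0.066.

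The IFIT genes, which encode proteins that bind viral RNA ends, held 1 call, which was a fall in homozygous cells. Ifit2 had normalised counts of 1820 and 1703 in wild-type, 1426 and 1363 in heterozygous and 1049 and 1222 in homozygous cells. The 3 genotypes did not overlap and were ordered by mutant copies, with a log2 fold change of -0.63 ± 0.11 (adjusted p = 0.0056, edgeR) in homozygous and -0.34 ± 0.11 (adjusted p = 0.15) in heterozygous cells. Ifit3b, a low-expressed copy next to Ifit3, was at 55.3 and 69.5, then 77.7 and 49.2, then 30.5 and 55.9 normalised counts, and its log2 fold change of -0.55 ± 0.36 in homozygous cells had an adjusted p of 0.48. Ifit1 and Ifit3 had homozygous log2 fold changes of -0.24 ± 0.25 and -0.15 ± 0.24, and heterozygous ones of 0.39 ± 0.24 and 0.38 ± 0.23, with overlapping libraries in every case against wild type.

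Isg15, a ubiquitin-like modifier, was the member whose mutant genotypes lay farthest apart. Its normalised counts were 180 and 172 in wild-type, 302 and 231 in heterozygous and 135 and 113 in homozygous cells. Heterozygous libraries were above and homozygous libraries below the wild-type pair. Neither difference from wild type passed the test, at log2 0.60 ± 0.18 (adjusted p = 0.12, edgeR) and -0.50 ± 0.19 (adjusted p = 0.18), whereas homozygous against heterozygous cells gave -1.10 ± 0.18 (adjusted p = 0.013). Rtp4, a receptor transporter protein, had the same shape. It was at 486 and 429, then 717 and 568, then 372 and 423 normalised counts, and differed between the mutant genotypes by -0.70 ± 0.14 on the log2 scale (adjusted p = 0.038). Rtp4 overlaps Gm45338 on the same strand in the GENCODE annotation, and the effect on its count was not checked.

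The remaining antiviral effectors did not pass the test in any comparison. Usp18, which removes ISG15 from its targets and dampens receptor signalling, the exonuclease Isg20, the radical SAM enzyme Rsad2 (viperin), the GTPase Mx1, Xaf1, Ifi27l2a, Ifi35 and the ADP-ribosyltransferase Parp14 had homozygous log2 fold changes between -0.24 (Rsad2) and 0.39 (Mx1). Mx1 was the least precise member, at 51.4 and 69.5, 102 and 48.2, and 108 and 49.3 normalised counts, with a SE of 0.42 on its log2 fold change.

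**Figure D2:**
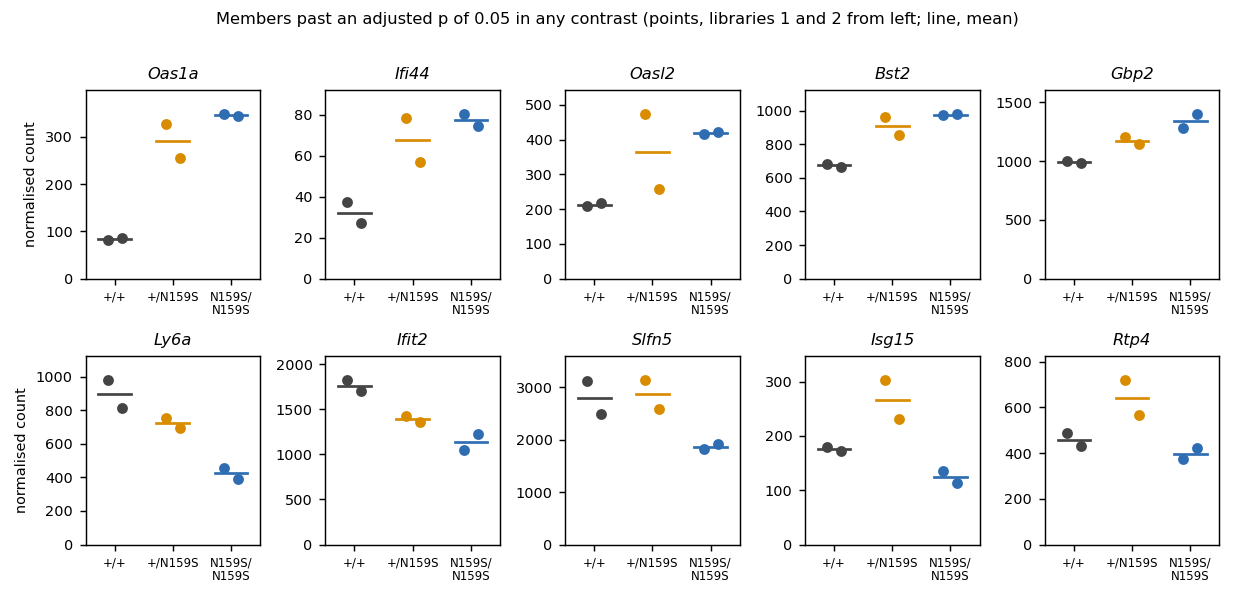
Normalised counts of the 10 members that passed the test in any genotype comparison, by Ikzf3 genotype, on axes that start at 0. Points are libraries (replicate 1 left, replicate 2 right) and lines are means of 2; Oas1a rises from 82.3 and 86.6 to above 250 in every mutant library, whereas Ly6a falls from 977 and 811 to 456 and 393 in homozygous cells.

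The cytosolic sensors Ifih1 (MDA5) and Dhx58 (LGP2), which recognise viral RNA, and Zbp1, which recognises nucleic acids in the Z form, gave no call. Ifih1 was closest, at 463 and 463 normalised counts in wild-type, 671 and 578 in heterozygous and 619 and 640 in homozygous cells. Its mutant libraries all lay above wild type, with log2 fold changes of 0.44 ± 0.12 (adjusted p = 0.055, edgeR) and 0.43 ± 0.12 (adjusted p = 0.0955) in homozygous and heterozygous cells. Dhx58 and Zbp1 had homozygous log2 fold changes of 0.06 ± 0.19 and -0.33 ± 0.14.

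The transcription factors that carry the interferon signal did not pass the test in any comparison. Irf1, an early target of interferon gamma, was the fifth most highly expressed member per length in wild-type cells at 108 RPKM. It had normalised counts of 6171 and 6639 in wild-type, 6031 and 5984 in heterozygous and 6597 and 6254 in homozygous cells, a homozygous log2 fold change of 0.00 ± 0.09. Irf7, which amplifies type I interferon responses, was at 1185 and 1190, then 1793 and 1311, then 1199 and 1203, so that only heterozygous replicate 1 stood well apart. Its log2 fold changes were 0.02 ± 0.13 in homozygous and 0.39 ± 0.13 (adjusted p = 0.18, edgeR) in heterozygous cells.

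Irf9, the DNA-binding subunit of the type I complex, had normalised counts of 2395 and 2528, 2626 and 2146, and 2124 and 2134 in the same order, and Stat2, its partner, had 1346 and 1486, 1480 and 1323, and 1443 and 1268. Homozygous log2 fold changes were -0.21 ± 0.11 for Irf9 and -0.06 ± 0.11 for Stat2. Wild-type and mutant libraries overlapped for Stat2. In the GENCODE annotation Irf9 overlaps Rnf31 on the same strand, and the effect on its count was not checked.

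The interferon-inducible GTPases comprise guanylate-binding proteins (Gbp2, Gbp3, Gbp7) and immunity-related GTPases (Ifi47, Igtp, Irgm1, Irgm2, Iigp1), which act on vacuoles that hold pathogens. Gbp2 rose in homozygous cells. Its normalised counts were 996 and 985 in wild-type, 1203 and 1141 in heterozygous and 1278 and 1396 in homozygous cells, in order of mutant copies without overlap. The log2 fold change was 0.43 ± 0.10 (adjusted p = 0.029, edgeR) in homozygous and 0.24 ± 0.10 (adjusted p = 0.26) in heterozygous cells. The other 7 ranged from -0.29 (Igtp) to 0.36 (Gbp3) on the log2 scale in homozygous cells, and none passed the test. Igtp and Irgm2 overlap on the same strand in the GENCODE annotation, so their separate counts are uncertain. Likewise, Ifi47 overlaps Olfr56 and Gbp7 overlaps Gm43802.

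Of the Ly6 surface proteins, Ly6a (Sca-1), a GPI-anchored antigen of haematopoietic progenitors and activated T cells, showed the clearest fall of any member. It had normalised counts of 977 and 811 in wild-type, 753 and 693 in heterozygous and 456 and 393 in homozygous cells. The 3 genotypes did not overlap, and homozygous cells differed by -1.07 ± 0.13 from wild type (adjusted p = 7.3e-04, edgeR) and by -0.77 ± 0.13 from heterozygous cells (adjusted p = 0.015) on the log2 scale. The summed CD8 and NK cell markers were ordered in the same way over the genotypes, and their part in this and the other falls in homozygous cells was not tested. Ly6e, at 185 RPKM in wild-type cells, had a homozygous log2 fold change of 0.29 ± 0.10 (adjusted p = 0.14). Ly6c1, a relative that is no member and was looked up afterwards, was lower in both mutant genotypes, by log2 changes of -1.29 (adjusted p = 0.0012, edgeR) and -1.24 (adjusted p = 0.0055).

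The Schlafen genes include regulators of T cell quiescence. Slfn5 had normalised counts of 3121 and 2488 in wild-type, 3130 and 2595 in heterozygous and 1827 and 1910 in homozygous cells. Heterozygous and wild-type libraries covered the same range, and both homozygous libraries lay below all others. Homozygous cells differed by -0.58 ± 0.13 from wild type (adjusted p = 0.023, edgeR) and by -0.62 ± 0.13 from heterozygous cells (adjusted p = 0.039). Slfn5os lies antisense within Slfn5, and no strand setting is given in the sources used here, so reads of the pair cannot be told apart. Slfn1 and Slfn2, the latter the most highly expressed member per length at 241 RPKM in wild-type cells, had homozygous log2 fold changes of 0.25 ± 0.11 and 0.01 ± 0.10. Among Schlafen genes that are no members, looked up afterwards, Slfn3 was higher (146.6 and 159.1 normalised counts in wild-type against 306.6 and 308.2 in homozygous cells, adjusted p = 0.0026) and Slfn8 lower (log2 -0.53, adjusted p = 0.014) in homozygous cells.

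**Figure D3:**
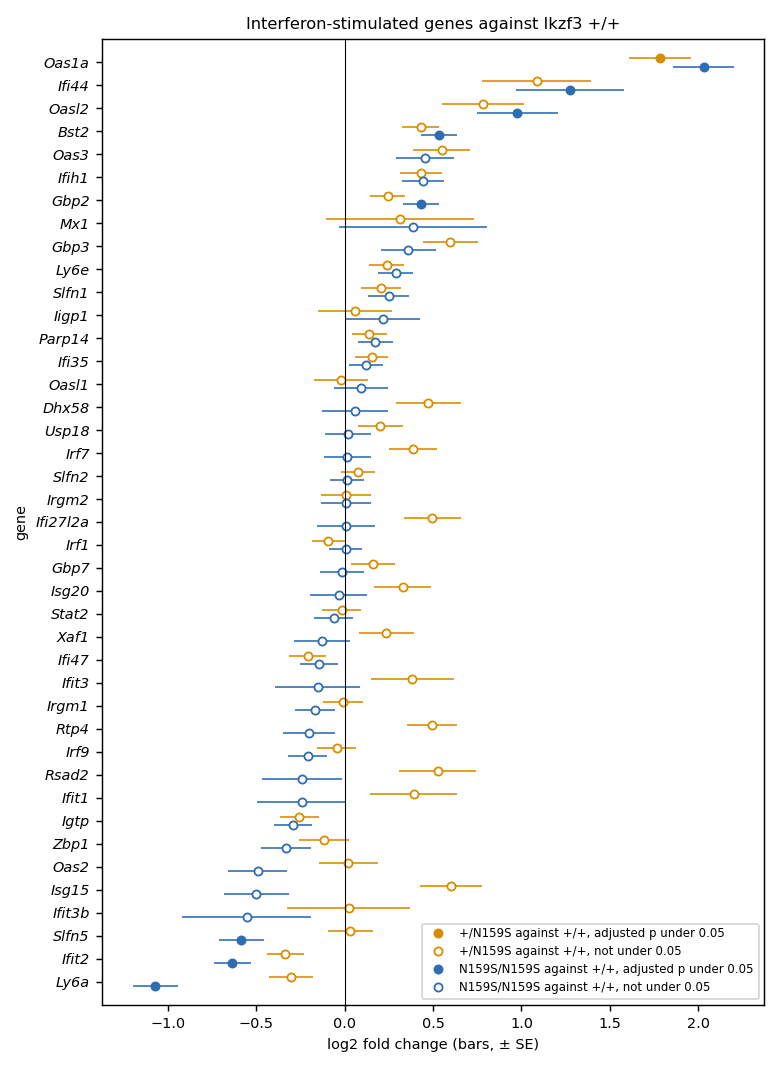
Log2 fold change of each of the 41 members against Ikzf3 +/+ (points, with bars of 1 SE), for Ikzf3 +/N159S (orange) and Ikzf3 N159S/N159S (blue), sorted by the latter. Filled points have an adjusted p under 0.05 in the edgeR fit of 2 libraries per genotype; 8 blue points and 1 orange point are filled, and the comparisons share the wild-type libraries.

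Without either Ikzf3 +/+ library or either Ikzf3 N159S/N159S library, 1 member was higher (Oas1a, adjusted p at most 0.0012), where 1.27 to 1.72% of all genes were, and 1 to 3 were lower, where 0.756 to 1.13% were. Over all 6 fits that left out a library, the homozygous log2 fold change of Oasl2 ran from 0.95 to 1.01. That of Bst2 ran from 0.52 to 0.55, that of Ifi44 from 1.05 to 1.51 and that of Gbp2 from 0.38 to 0.49. Among the falls, Ly6a ran from -1.20 to -0.93, Ifit2 from -0.74 to -0.53 and Slfn5 from -0.74 to -0.41. With the genotypes at 2 libraries each, an exact permutation test of a single gene cannot go below p = 0.33.

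In heterozygous cells, most members were above wild type but a single one passed the test. In Ikzf3 +/N159S against Ikzf3 +/+ cells, 31 members had log2 fold changes above 0 and 10 below, with a median of 0.21 against 0.01 for all genes. Oas1a was the 1 member called higher, where 1.16% of all genes were. No member was called lower by edgeR's quasi-likelihood test, where 0.586% of all genes were. None was with DESeq2, where 0.639% of the 21296 genes in that fit were. The same held for edgeR's likelihood ratio test, where 1.70% of all genes were. At an unadjusted p under 0.05 there were 18 members of either direction, where 16.3% of all genes were. Both heterozygous libraries lay above both wild-type libraries for 20 members and below them for 5, where 25.0% and 22.1% of all genes did so. In homozygous against heterozygous cells, Isg15, Ly6a, Rtp4 and Slfn5 were lower, where 0.933% of all genes were, and 0 members were higher, where 0.553% of all genes were. By DESeq2 0 members were higher as well, where 0.446% of the 21296 genes in that fit were. At an unadjusted p under 0.05 there were 14 members of either direction, where 11.7% of all genes were.

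Heterozygous cells were also set against the midpoint of wild-type and homozygous cells on the log2 scale, where equal steps per mutant copy would put them. Isg15 (0.85 ± 0.15, adjusted p = 0.024, edgeR), Oas1a (0.77 ± 0.14, adjusted p = 0.026) and Rtp4 (0.59 ± 0.12, adjusted p = 0.048) lay above it, where 0.743% of all genes did. In all, 35 of the 41 members were above the midpoint, with a median of 0.19 on the log2 scale against 0.01 for all genes.

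More than any other library, 1 heterozygous library held the highest values of the members. Ikzf3 +/N159S replicate 1 was the highest of the 6 libraries for 25 of the 41 members, whereas each of the other 5 was highest for 2 to 5. Of all genes tested, 14.5% were highest in that library. It was highest for 15 of the 21 antiviral effectors, 3 of 3 sensors, 2 of 4 transcription factors, 3 of 8 GTPases, 1 of 2 Ly6 genes and 1 of 3 Schlafen genes. Its median log2 difference from replicate 2 over the members was 0.33, with 39 of 41 above 0, where 47.6% of all genes were. The same difference was 0.04 between the Ikzf3 +/+ replicates (25 of 41 above 0) and -0.0026 between the Ikzf3 N159S/N159S replicates (20 of 41).

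The ratio of replicate 1 to replicate 2 in heterozygous cells was 2.13 for Mx1, 1.83 for Oasl2, 1.75 for Ifit3, 1.67 for Iigp1, 1.65 for Ifit1, 1.55 for Dhx58 and 1.52 for Ifi27l2a, and it was near 1 for Ifi35 (1.02), Irf1 (1.01), Slfn1 (1.01) and Slfn2 (0.99). Mx1 had a like ratio, 2.19, between the homozygous replicates. A list of 67 other interferon-induced genes that passed the filter showed the same tilt, with 33 highest in that library and a median log2 difference of 0.14 between the heterozygous replicates. B cell markers did not follow it, summing to 543 CPM in replicate 1 and 882 CPM in replicate 2, and neither did effector and memory T cell markers. Other lists were higher in replicate 1. Regulatory T cell markers summed to 149 and 126 CPM, and myeloid and dendritic cell markers to 51.6 and 39.0 CPM, in the same order. The erythroid, CD8 and NK cell and CD4 T cell sums were higher in replicate 1 as well. The part of these markers and of the sex-linked difference in the heterozygous values was not tested.

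Without Ikzf3 +/N159S replicate 1, the median log2 fold change of the members in heterozygous against wild-type cells fell from 0.21 to 0.05. The median distance from the midpoint fell from 0.19 to 0.02. The log2 fold change of Oas1a in heterozygous cells was then 1.59, where it was 1.78 with all libraries. No member then passed the test as lower in homozygous than in heterozygous cells, where 0.710% of all genes did, or as off the midpoint, where 0.749% did. The log2 differences between homozygous and heterozygous cells were then -0.89 for Isg15, -0.70 for Ly6a, -0.51 for Rtp4 and -0.47 for Slfn5, and the distances from the midpoint were 0.64 for Isg15, 0.57 for Oas1a and 0.41 for Rtp4. Without replicate 2 instead, 6 members were higher than wild type (Dhx58, Ifi27l2a, Irf7, Oas1a, Oas3 and Oasl2), where 0.592% of all genes were. In that fit 8 were lower in homozygous than in heterozygous cells, where 0.544% of all genes were, and 6 were off the midpoint, where 0.360% were. Fewer members passed as off the midpoint without either wild-type library or without Ikzf3 N159S/N159S replicate 2, and so did fewer of all genes. Fewer members passed as lower in homozygous than in heterozygous cells without either homozygous library, and again fewer of all genes did. With any 1 wild-type or homozygous library left out, the members' median distance from the midpoint was 0.17 to 0.21 on the log2 scale. Their median difference between homozygous and heterozygous cells was then -0.16 to -0.07.

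**Figure D4:**
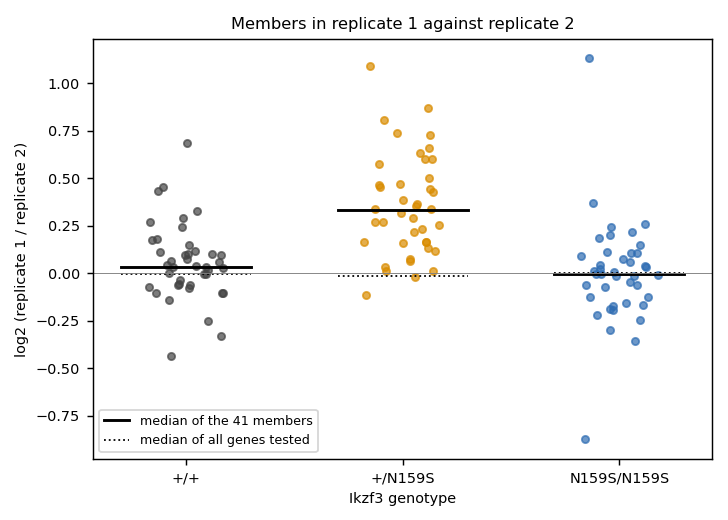
Log2 ratio of replicate 1 to replicate 2 for each of the 41 members (points, spread sideways for legibility) within each Ikzf3 genotype. Solid lines are medians over members and dotted lines medians over all 12117 genes tested; the solid line lies at 0.33 in Ikzf3 +/N159S and close to the dotted line in the other genotypes.

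The rest of the pathway was read from lists of ligands, receptors, inhibitors and inducers. The 11 listed interferon genes had too few reads to test. Ifng had 0 to 0.87 CPM per library, Ifnb1 3 reads over all 6 libraries, and 7 of the 11 had no read. These 11 genes thus had few counted reads at this depth, and interferon genes outside the list are not covered. Among 10 receptor and signalling genes tested, 1 was lower in homozygous cells, where 2.10% of all genes were. It was Ifngr2, a chain of the interferon gamma receptor. Its normalised counts were 1255 and 1178 in wild-type, 904 and 1011 in heterozygous and 891 and 924 in homozygous cells, a log2 fold change of -0.42 ± 0.10 (adjusted p = 0.039, edgeR). Ifnar1, Ifnar2 and Ifngr1 had log2 fold changes of -0.26, -0.22 and 0.13 and did not pass the test.

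Among 8 inhibitors tested, 1 was higher in homozygous cells, where 3.10% of all genes were. It was Socs3, a feedback inhibitor of JAK kinases. It had normalised counts of 1532 and 1691 in wild-type, 1943 and 2426 in heterozygous and 2529 and 3061 in homozygous cells, and a log2 fold change of 0.79 ± 0.13 (adjusted p = 0.0053, edgeR). Among 14 genes that induce interferon, 1 was higher, where again 3.10% of all genes were. It was Sting1, the adaptor that responds to cyclic dinucleotides. It was at 1889 and 1742, then 2339 and 2358, then 2671 and 2580 normalised counts, a log2 fold change of 0.53 ± 0.09 (adjusted p = 0.0074). The libraries of both genes were ordered by mutant copies without overlap. None of the genes on these lists passed the test in heterozygous cells, where 1.16% of all genes were higher and 0.586% lower.

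Ikzf3 itself had normalised counts of 2351 and 2312 in wild-type, 2511 and 2278 in heterozygous and 2950 and 3032 in homozygous cells, a homozygous log2 fold change of 0.36 ± 0.09 (adjusted p = 0.052, edgeR). As the allele is a missense change, this level does not check the genotype labels. Of the 41 members, 11 lie on chromosome 11, as Ikzf3 does, and of those Slfn5 was the 1 that passed the test in homozygous cells. Over all genes tested, 3.10% were higher and 2.10% lower in that comparison.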

How the data were processed

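RNA-seq measured poly(A) RNA of 6 sorted T cell libraries. Per the submitters' processing notes and the study's methods, the authors trimmed reads with Trimmomatic 0.38.1, mapped them to mm10 with HISAT2 2.2.1 and deposited HTSeq 2.0.2 read counts per refGene gene, the unit used here. Counter rows that name no gene were left out, after which 50.7 to 57.7% of the tabulated reads remained.

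Genes were kept with edgeR's filterByExpr (minimum count 10, minimum total 15; 12117 of 25239). One edgeR 4.0.16 quasi-likelihood fit (TMM, 1 coefficient per genotype, all 6 libraries) gave log2 fold changes, SE and Benjamini-Hochberg adjusted p over all genes tested, with calls under 0.05. The test and DESeq2 1.42.0 were also run on simulated counts. RPKM used GENCODE exon lengths and is the 1 scale on which levels of different genes were compared.

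The members and lists were chosen with earlier results of these data known. Library values are given for members past 0.05 in any contrast, the 5 largest homozygous rises and falls, and Irf1, Irf7, Irf9 and Stat2, and for Ifih1 and Mx1, chosen after their values were seen. Listed pathway genes are named when past 0.05 or when they are Ifnar1, Ifnar2, Ifngr1, Ifngr2, Ifng, Ifnb1 or Ikzf3, and 1 further gene of this rule is not reported here. Alternatives were DESeq2, its size factors, other filters, blocks for replicate number and for genes detected, a likelihood ratio test, fits of 2 genotypes and leaving out each library.

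The main fit was unpaired. The labels do not tie libraries to mice, so p-values measure the spread between these libraries. Replicates differed by more than counting noise (chi-square 9.98 to 13.4 per degree of freedom).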

Additional observations from a re-analysis of the deposited data

How the results depend on the processing

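The changes called in the main fit kept their direction under every alternative. Deviations of replicate 1 correlated at -0.17 between wild-type and heterozygous, -0.22 between wild-type and homozygous and 0.24 between heterozygous and homozygous cells. Replicate numbers thus did not pair the same way across all genotypes. The signs match the split of libraries by genes detected that is described below, and the cause was not tested. With a replicate block, members higher and lower in Ikzf3 N159S/N159S against Ikzf3 +/+ numbered 4 and 3 (Gbp2 lost, adjusted p = 0.062), those higher in Ikzf3 +/N159S against Ikzf3 +/+ 1, those lower in homozygous than in heterozygous cells 3 (Rtp4 lost, adjusted p = 0.061) and those off the midpoint 2. Of all genes in that fit, 2.51%, 1.58%, 0.825%, 0.726% and 0.751% were called in the same order. DESeq2 gave 4, 3, 1, 4 and 3 members. The DESeq2 fit held 21296 genes, every one with at least 1 read, where the main fit tested 12117. Of these 21296, 1.58%, 1.13%, 0.718%, 0.545% and 0.686% were called. The base is wider than in the main fit, so the shares of the 2 fits are not directly comparable. A block that separates the libraries with fewer genes detected (Ikzf3 +/+ replicate 2 and replicate 1 of both mutant genotypes) from the others gave 9 higher (7.35% of all genes in that fit) and 7 lower (7.17%) in homozygous cells, 13 higher (5.64%) and 2 lower (5.79%) in heterozygous cells, 10 lower in homozygous than in heterozygous cells (3.30%) and 9 off the midpoint (5.63%). With no filter on low counts, 11 members were higher in heterozygous cells, where 2.18% of the same 21296 genes were. In that fit 8 members were lower in homozygous than in heterozygous cells (1.42%) and 8 off the midpoint (1.87%). The likelihood ratio test gave 9 higher in heterozygous cells (3.58%) and 5 off the midpoint (2.94%). The cause of these shifts was not tested.

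Leaving out 1 library at a time gave 1 to 7 members higher and 1 to 4 lower in homozygous cells, 1 to 6 higher in heterozygous cells, 0 to 8 lower in homozygous than in heterozygous cells and 0 to 6 off the midpoint, with the lone library of a genotype assumed to vary like the others. Of all genes in these fits, 1.27 to 3.53% were called higher and 0.756 to 2.34% lower in homozygous cells. In heterozygous cells 0.333 to 1.32% were called higher. In homozygous against heterozygous cells 0.174 to 0.914% were called lower, and 0.360 to 0.890% were off the midpoint. The share of all genes called thus also varied between these fits. The counts of members moved with that share in some fits and against it in others. With 2 libraries per genotype the median SE of the members was 0.14 on the log2 scale, and the smallest change called in homozygous cells was 0.43.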

Other observations

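A list of 67 further interferon-induced genes that are no members and passed the filter was drawn up with earlier results known. Of these, 5 were higher and 6 lower in Ikzf3 N159S/N159S than in Ikzf3 +/+ cells (edgeR, adjusted p under 0.05). Of all genes tested, 3.10% were higher and 2.10% lower. The median log2 fold change of the 67 was 0.0021. The higher ones were Parp12, a mono-ADP-ribosyltransferase (log2 0.81), Epsti1 (0.56), the membrane protein Ifitm2 (3.66, from 1.3 and 2.0 to 16.6 and 29.6 normalised counts), the nuclear body protein Sp140 (0.46) and Slfn3. The lower ones were the E3 ligase Herc6 (-0.59), Ifi208 (-0.69), Slfn8 (-0.53), Ly6c1 (-1.29), the MHC class II transactivator Ciita (-1.23) and Irf4 (-2.43), a factor of activated lymphocytes. Ciita had 104 and 122 normalised counts in wild-type, 191 and 256 in heterozygous and 52.3 and 43.9 in homozygous cells, and was higher in heterozygous cells as well (log2 0.98, adjusted p = 0.039). The B cell marker sum was ordered in the same way over the genotypes, and its part in the values of Ciita was not tested.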
